A study of Mus musculus with 10 samples.

Results

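The Kruppel-like factors described here are 10 genes, Klf2, Klf3, Klf4, Klf5, Klf6, Klf7, Klf9, Klf10, Klf13 and Klf15, taken by their symbols from the platform annotation, out of 18193 genes that the arrays measured. All 10 were found, with 34 probe sets between them, and a gene's level was read from the probe set with its highest mean over the 10 arrays, called its brightest. No gene was removed for a low value. The study hybridised RNA from mouse cells to 10 Affymetrix arrays, 1 sample on each. Brain NSC (4 arrays) are neural stem cells derived from the adult brain of mice that carry the Oct4-eGFP transgene (OG2) and Rosa26 neo/lacZ, crossed with ICR females, and not infected with any factor per their labels. The arrays titled iPS (3) are named as induced pluripotent stem cells, made from such neural stem cells with a pMX-based retrovirus that carried mouse Oct4 cDNA and no other factor, and kept in LIF medium on irradiated embryonic fibroblasts. The arrays titled iPS-derived NSC (3) are named as neural stem cells obtained by differentiating those iPS cells. All 3 groups share the genetic background, and no group received a Klf4 vector. Colonies were picked and expanded, and the labels do not give how many lines, cultures or animals stand behind a group, so p values measure the spread between these arrays, which may be technical.

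The marker genes go against the names of both derived groups. The 8 pluripotency markers used here averaged 12.12 to 12.23 per array (log2) in the arrays titled iPS-derived NSC, against 4.66 to 4.73 in those titled iPS and 4.69 to 4.82 in brain NSC. The 7 measured neural stem cell markers averaged 6.67 to 6.74, 12.60 to 12.70 and 12.44 to 12.68 in the same order. Every direction below that involves either derived group follows labels that these markers contradict. The correlation over all genes between arrays of 1 group was 0.990 to 0.998.

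Kruppel-like factors are transcription factors that bind GC-rich and CACCC sequences through a run of C-terminal zinc fingers. The family is commonly divided by cofactor. Klf2, Klf4, Klf5, Klf6 and Klf7 carry activating regions and work with acetyltransferases, Klf3 represses through the corepressor CtBP, and Klf9, Klf10 and Klf13 recruit the Sin3 corepressor. Klf2, Klf4 and Klf5 are known from embryonic stem cells, where they overlap in keeping cells undifferentiated, and Klf4 is a classical reprogramming factor. Klf6, Klf7 and Klf9 are known from neurons and glia, where they bear on neurite growth and maturation.

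In the arrays titled iPS-derived NSC, Klf2, Klf4, Klf5 and Klf9 were high and Klf3, Klf7 and Klf10 low compared with both other groups. This goes by the brightest probe sets, and those of Klf3 disagreed, as given below. On its brightest probe set, Klf6 was low beside the arrays titled iPS and overlapped with brain NSC. Against the arrays titled iPS, limma called 8 of the 10 members, 4 higher and 4 lower, where a call needs an adjusted p under 0.05 and at least a 2-fold difference. Of all genes, 25.3% were called in that comparison, 10.8% higher and 14.4% lower. Against brain NSC 7 of 10 were called, 4 higher and 3 lower, beside 25.4% of all genes (11.3% higher and 14.0% lower). The median absolute difference of the members was 2.11 log2 units against the arrays titled iPS and 1.91 against brain NSC, beside 0.42 and 0.41 over all genes. The signed medians were -0.32 and 0.08, beside 0.12 and 0.13 over all genes. Counting adjusted p values under 0.05 at any size, 9 of 10 and 8 of 10 members passed, beside 61.1% and 62.7% of all genes. The arrays of the compared groups did not overlap for 9 and 8 members, beside 69.5% and 61.3%. The share of members called was above that of all genes in both comparisons, which share the arrays titled iPS-derived NSC, and the members went both ways. All genes include dim ones, and a share among genes as bright as the members was not taken. The members were also chosen with earlier results of these data known.

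**Figure D1:**
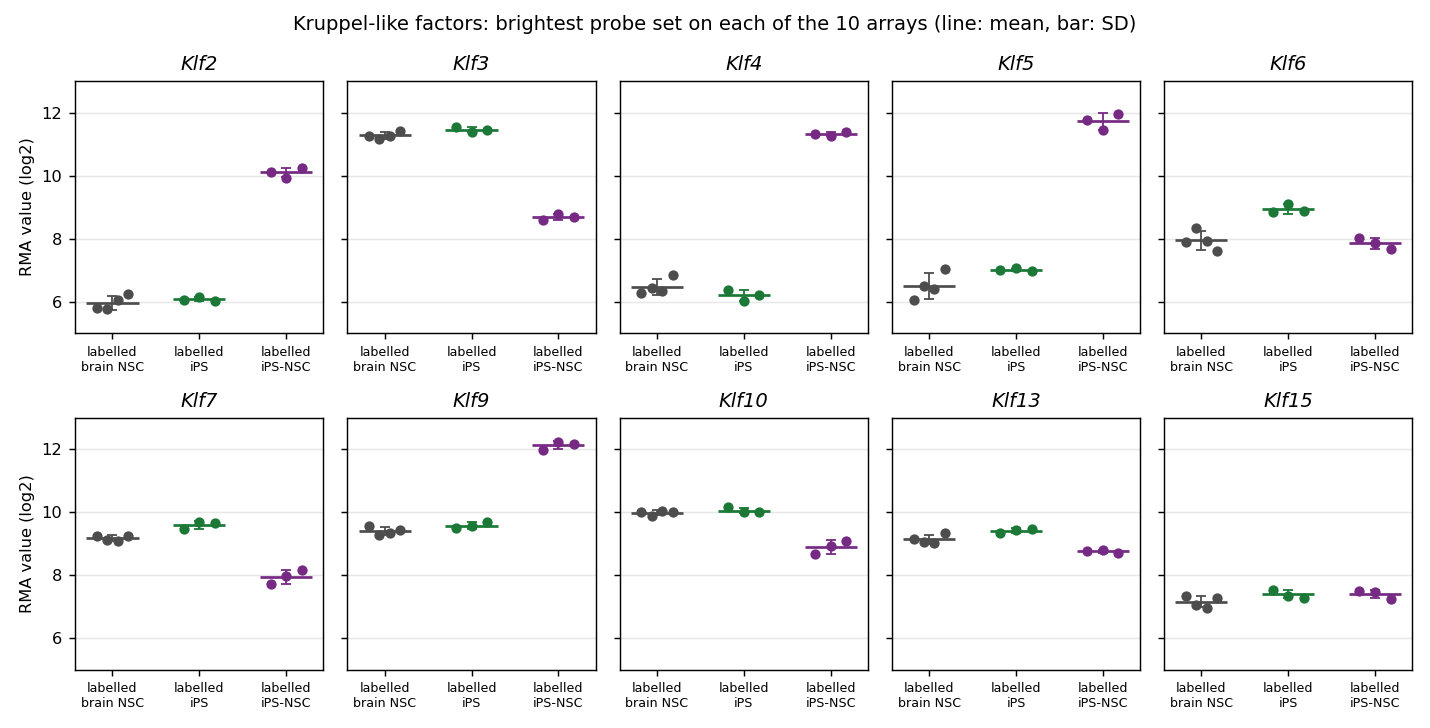
Deposited log2 expression values of the brightest probe set of each Kruppel-like factor, 1 panel per gene, with the 4 arrays of brain NSC, the 3 titled iPS and the 3 titled iPS-derived NSC as points, the group mean as a line and the SD as a bar. Klf2, Klf4, Klf5 and Klf9 stand highest and Klf3, Klf7, Klf10 and Klf13 lowest in the arrays titled iPS-derived NSC, while Klf15 lies between 6.96 and 7.54 on all 10 arrays.

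Klf4 showed the largest rise among the members against the arrays titled iPS. Its values were 11.31, 11.26 and 11.39 in the arrays titled iPS-derived NSC, 6.38, 6.02 and 6.21 in those titled iPS, and 6.27, 6.42, 6.34 and 6.84 in brain NSC. The first group stood far above both others, which overlapped. The difference was 5.12 ± 0.14 (SE, n = 3 and 3; 34.7-fold; limma adjusted p = 1.49e-12) against the arrays titled iPS and 4.85 ± 0.13 (n = 3 and 4; adjusted p = 1.09e-12) against brain NSC. The other Klf4 probe set rose by 4.20 and 4.22. Klf4 has 2 probe sets in all, so both rose in both comparisons.

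Klf2, a factor best known from endothelium, lymphocytes and embryonic stem cells, stood at 10.11, 9.94 and 10.25 in the arrays titled iPS-derived NSC. In those titled iPS it stood at 6.04, 6.15 and 6.02, and in brain NSC at 5.80, 5.76, 6.06 and 6.24. The pattern was that of Klf4, with a wide gap between the first group and the others. Klf2 rose by 4.03 ± 0.13 (SE, 16.3-fold, limma adjusted p = 7.44e-12) against the arrays titled iPS and by 4.13 ± 0.12 (adjusted p = 2.46e-12) against brain NSC. Klf2 has 1 probe set among those with a single symbol, so no other reading of it was used.

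Klf5, a factor of proliferating epithelia and of the early embryo, stood at 11.76, 11.43 and 11.96 in the arrays titled iPS-derived NSC and at 6.99, 7.05 and 6.97 in those titled iPS. Brain NSC varied more, at 6.06, 6.51, 6.39 and 7.04, with replicate 4 as high as the arrays titled iPS. Klf5 rose by 4.71 ± 0.20 (SE, 26.2-fold, limma adjusted p = 1.09e-10) and by 5.22 ± 0.19 (37.2-fold, adjusted p = 1.64e-11) against brain NSC. Its middle probe set rose by 3.04 from a dim mean of 4.75 in the arrays titled iPS, and was called higher than in brain NSC as well. The dimmest of its 3 probe sets differed by 0.58 and 0.47, below the 2-fold limit, with a mean of 4.49 in the arrays titled iPS-derived NSC, near the lower quartile of all probe sets (4.22 to 4.41 over the arrays).

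The low levels of Klf2 and Klf4 in both other groups lay a little above the median of all probe sets, which was 5.65 to 5.72 over the arrays. No detection calls were used here, and RMA compresses differences from dim levels, so these folds are not exact. The same holds for the middle and dimmest Klf5 probe sets and for every gene named below whose level in 1 of the groups lies near or under that median.

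Klf5 lies on chromosome 14. The median difference of the 273 bright genes of that chromosome, those with a mean of at least 7, was -0.75 against the arrays titled iPS and -0.70 against brain NSC. Klf12, a repressor of the same family on the same chromosome, fell by 4.47 ± 0.16 (limma adjusted p = 1.68e-11) and 4.45 ± 0.15. Klf2 lies on chromosome 8, whose other 501 bright genes had a median difference of 0.31 from brain NSC in the arrays titled iPS-derived NSC and of 0.45 in those titled iPS. Klf2 itself differed by 0.11 ± 0.12 between the arrays titled iPS and brain NSC. For the chromosomes of the other members, the arrays titled iPS-derived NSC had medians of -0.25 (Klf10) to 0.16 (Klf13) against those titled iPS. Against brain NSC the medians were -0.33 (Klf7) to 0.25 (Klf13). The chromosome of Klf7, which fell, had -0.21 in the first comparison. Whether such shifts bear on the members was not tested.

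Klf6 and Klf7, the other members that work with acetyltransferases, ran the other way. Klf7, a factor of developing neurons, stood at 7.71, 7.97 and 8.17 in the arrays titled iPS-derived NSC, at 9.46, 9.69 and 9.66 in those titled iPS and at 9.26, 9.11, 9.09 and 9.26 in brain NSC. The 3 groups did not overlap, with the arrays titled iPS highest. Klf7 fell by 1.65 ± 0.12 (SE, 3.15-fold, limma adjusted p = 4.02e-08) against the arrays titled iPS and by 1.23 ± 0.11 (adjusted p = 3.95e-07) against brain NSC. All 4 of its probe sets were called lower in the first comparison, with differences of -2.92 to -1.35. In the second 3 were, and the other differed by -0.92.

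Klf6, an early response gene that is induced on injury and serum stimulation, depended on the probe set. Its brightest probe set (1427742_a_at) gave 8.02, 7.87 and 7.67 in the arrays titled iPS-derived NSC, 8.84, 9.11 and 8.86 in those titled iPS, and 7.88, 8.35, 7.92 and 7.61 in brain NSC. The arrays titled iPS were highest, and the other groups overlapped. Klf6 fell by 1.08 ± 0.16 (SE, limma adjusted p = 4.95e-05) against the arrays titled iPS and differed by -0.09 ± 0.15 (95% interval -0.41 to 0.24, adjusted p = 0.634) from brain NSC. The call against the arrays titled iPS was lost with replicate 2 of the arrays titled iPS left out (-0.996) and with replicate 3 of those titled iPS-derived NSC left out (-0.991). It was also lost with quantile normalization repeated on the table (-0.83) and with the mean of all 5 probe sets (-0.88).

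The next brightest Klf6 probe set (1433508_at) placed the groups differently. It gave 7.50, 7.31 and 7.29 in the arrays titled iPS-derived NSC, 8.50, 8.50 and 8.42 in those titled iPS, and 8.53, 8.61, 8.41 and 8.39 in brain NSC. Here the first group lay below both others, which overlapped, and its difference from brain NSC was -1.12. Of the 5 Klf6 probe sets, 3 were called lower than in brain NSC, by 1.08 to 1.14, though the brightest was not. All 5 differed downward from the arrays titled iPS, and 3 of them were called.

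Klf3, a repressor that recruits CtBP and is known from blood and fat cells, showed the largest fall among the members when each is read from its brightest probe set. With the mean of all probe sets the order turned, at -0.90 for Klf3 and -1.98 for Klf7 against the arrays titled iPS. Its brightest probe set stood at 8.59, 8.78 and 8.67 in the arrays titled iPS-derived NSC, at 11.54, 11.38 and 11.45 in those titled iPS, and at 11.27, 11.15, 11.27 and 11.42 in brain NSC. The first group was clear of both others, which overlapped. Klf3 fell by 2.78 ± 0.10 (SE, 6.86-fold, limma adjusted p = 1.87e-11) and by 2.60 ± 0.09 against brain NSC (adjusted p = 1.60e-11).

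Not all Klf3 probe sets followed. Of 7, 3 were called lower against the arrays titled iPS, and the differences ran from -2.78 to 0.77. Probe set 1431630_a_at, the brightest of all Klf3 probe sets in the arrays titled iPS-derived NSC, gave 9.65, 9.51 and 9.76 there, 8.76, 9.09 and 8.77 in those titled iPS, and 8.21, 8.26, 8.40 and 8.66 in brain NSC. It was thus higher on all 3 of those arrays than on any other, by 0.77 against the arrays titled iPS and by 1.26 against brain NSC, the last a call. With the mean of the 7 probe sets Klf3 differed by -0.90 and -0.59 and was not called. Which Klf3 transcripts each probe set reads was not analysed here.

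Among the members that recruit Sin3, Klf9 rose. Klf9, a hormone-responsive factor of maturing neurons and glia, stood at 11.99, 12.24 and 12.18 in the arrays titled iPS-derived NSC, at 9.49, 9.55 and 9.69 in those titled iPS and at 9.55, 9.27, 9.35 and 9.45 in brain NSC. The gap was wide on every array, and the last groups overlapped. Klf9 rose by 2.56 ± 0.11 (SE, 5.89-fold, limma adjusted p = 1.06e-10) and by 2.73 ± 0.10 against brain NSC (6.63-fold, adjusted p = 2.34e-11). Of its 7 probe sets 6 were called higher in both comparisons, and the other, the dimmest, differed by 0.70 and 0.63.

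Klf10, which TGF-beta induces early and which damps cell growth, stood at 8.66, 8.93 and 9.09 in the arrays titled iPS-derived NSC, at 10.15, 10.01 and 9.99 in those titled iPS and at 9.99, 9.89, 10.05 and 10.01 in brain NSC. It fell by 1.16 ± 0.11 (SE, 2.23-fold, limma adjusted p = 6.97e-07) and by 1.09 ± 0.10 (adjusted p = 5.82e-07), close to the 2-fold limit. Like Klf2 it has 1 probe set among those with a single symbol, so these values have no other reading beside them. The call against brain NSC was lost without replicate 1 of the arrays titled iPS-derived NSC (-0.976) and with quantile normalization repeated on the table (-0.981).

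Klf13, known from T cells and the heart, was lowest in the same arrays, at 8.76, 8.82 and 8.70, against 9.34, 9.45 and 9.47 in those titled iPS and 9.16, 9.05, 9.01 and 9.33 in brain NSC. The 3 groups did not overlap on this brightest probe set, with the arrays titled iPS and brain NSC apart by a hair (9.337 against 9.335). The differences of -0.66 ± 0.10 and -0.38 ± 0.10 had limma adjusted p values of 7.06e-05 and 0.00318 but were under 2-fold. The middle of its 3 probe sets gave -0.52 and -0.10. There brain NSC ran from 8.06 to 9.18 and overlapped with both other groups. The dimmest gave 0.12 and 0.10.

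Klf15, a glucocorticoid-induced regulator of metabolism in muscle, liver and glia, was the member nearest to level. It stood at 7.51, 7.47 and 7.26, at 7.54, 7.36 and 7.29, and at 7.33, 7.06, 6.96 and 7.29 in the arrays titled iPS-derived NSC, those titled iPS and brain NSC. All 3 groups overlapped on its 1 probe set with a single symbol. Its difference from the arrays titled iPS was 0.02 ± 0.12 (limma adjusted p = 0.919), with a 95% interval of -0.25 to 0.28. From brain NSC the interval was 0.01 to 0.50 (adjusted p = 0.0690).

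**Figure D2:**
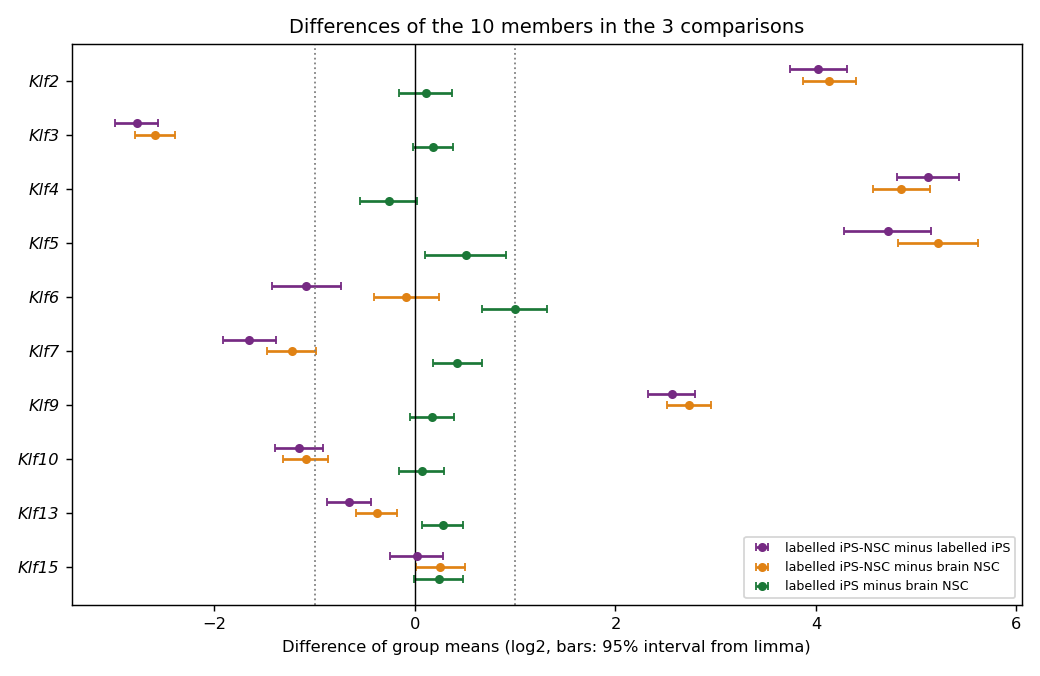
Differences of group means for the 10 members in the 3 comparisons, on the log2 scale, with 95% intervals from limma as bars, a solid line at 0 and dotted lines at 2-fold. The 2 comparisons with the arrays titled iPS-derived NSC lie side by side for every member except Klf6, whose values are -1.08 and -0.09, and all 10 values of the arrays titled iPS over brain NSC lie within the dotted lines.

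Between the arrays titled iPS and brain NSC, limma called 0 of the 10 members, where 1.84% of all genes were called (0.951% higher and 0.890% lower). Without brain NSC replicate 4 the count over all genes went from 335 to 537, and that of higher calls from 173 to 332, with 0 members called. An adjusted p under 0.05 at any size was reached by 2 members and by 20.4% of all genes, and the arrays of the groups did not overlap for 3 members and for 28.3% of all genes. Without the adjustment 4 of 10 members had a p under 0.05, and of all genes 32.5% did. Klf6 came nearest, higher by 0.996 ± 0.151 (SE, adjusted p = 0.000602), just under 2-fold, and without iPS replicate 1 (1.04), iPS replicate 3 (1.03) or brain NSC replicate 2 (1.13) it was called. Its other 4 probe sets gave -0.62 to 0.24. Probe set 1418280_at, lower by 0.62, read 6.89, 7.21 and 6.91 in the arrays titled iPS against 7.77, 7.94, 7.48 and 7.27 in brain NSC. The groups did not overlap there, in the opposite order to the brightest probe set.

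Klf7 was higher by 0.42 ± 0.11 (limma adjusted p = 0.0195) and was the other member with an adjusted p under 0.05. Its adjusted p was 0.0855 without iPS replicate 2, 0.0857 without iPS replicate 3, 0.0533 without brain NSC replicate 2 and 0.0574 without brain NSC replicate 3. Klf5 differed by 0.50 ± 0.19 (adjusted p = 0.0741) on its brightest probe set, and its other probe sets gave -0.04 and -0.12. Without brain NSC replicate 4 it differed by 0.69 (adjusted p = 0.00175) and Klf13 by 0.34 (adjusted p = 0.00826), both under 2-fold. Klf4 differed by -0.26 ± 0.13, with a 95% interval of -0.55 to 0.02. Of the 34 member probe sets, limma called 0 in this comparison, and 12 had an unadjusted p under 0.05. Among all probe sets with 1 symbol 2.38% were called. Their share with an unadjusted p under 0.05 was not taken. Over all genes, each on its brightest probe set, that share was 32.5%, so 12 of 34 is not read as an excess.

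**Figure D3:**
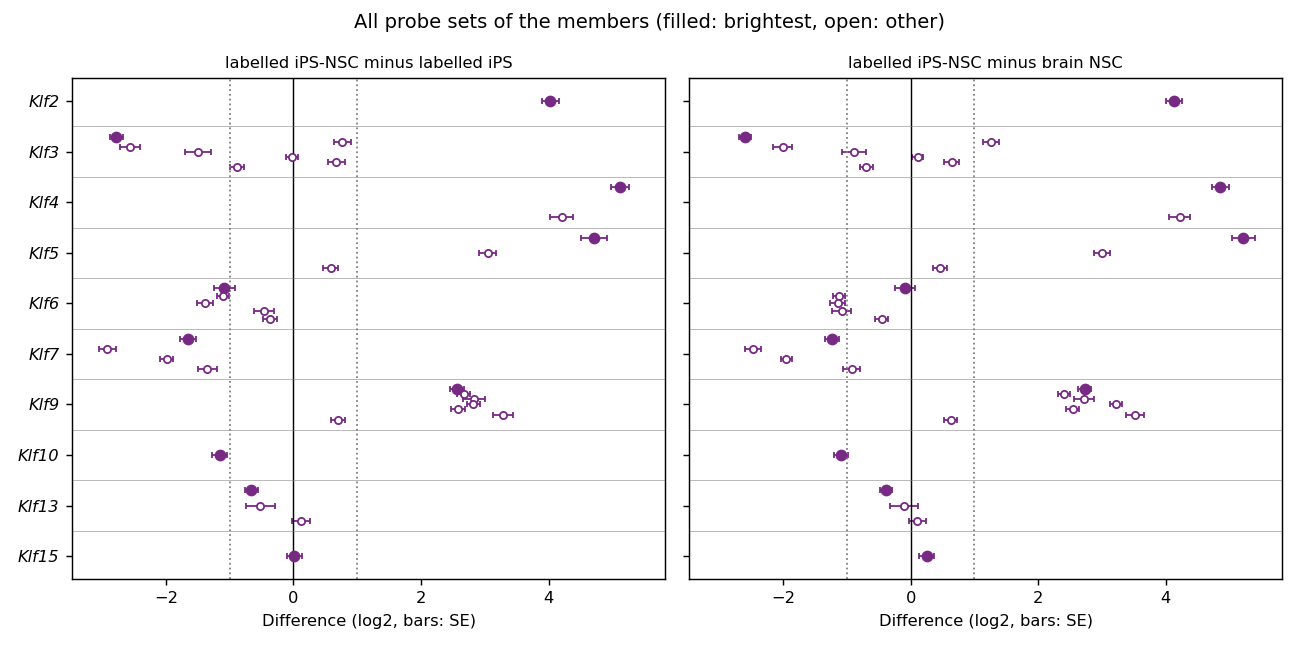
Differences of all 34 member probe sets on the log2 scale, with SE bars, for the arrays titled iPS-derived NSC over those titled iPS (left) and over brain NSC (right), the brightest probe set of a gene filled and the others open. The probe sets of Klf4, Klf5, Klf6, Klf7 and Klf9 lie on 1 side of 0, and those of Klf3 spread from -2.78 to 0.77 on the left. The brightest Klf6 probe set lies at -1.08 on the left and at -0.09 on the right.

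Over all their probe sets, the members gave 11 called higher and 11 called lower of 34 against the arrays titled iPS, and 12 and 9 against brain NSC. Among all 34945 probe sets with 1 symbol, 23.7% and 23.8% were called in either direction. The genes whose probe sets disagreed in sign in the first comparison were Klf3 (5 below and 2 above 0) and Klf13 (2 below and 1 above 0).

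The promoters of the members with the largest differences are shown because the family binds GC-rich boxes, so these sequences show what such boxes look like next to its own genes. RefSeq (GRCm38.p6) promoter sequences were found for 8 of the 10 members, all except Klf5 and Klf10. The 250 bases before the start are printed 5′ to 3′ on the strand of the gene, with matches to CACCC and to the GC box GGGCGG, on either strand, in capitals. They are Klf2 (chr8:72318812-72319061, plus strand), Klf4 (chr4:55532476-55532725, minus strand), Klf9 (chr19:23140976-23141225, plus strand) and Klf3 (chr5:64803271-64803520, plus strand).
Klf2: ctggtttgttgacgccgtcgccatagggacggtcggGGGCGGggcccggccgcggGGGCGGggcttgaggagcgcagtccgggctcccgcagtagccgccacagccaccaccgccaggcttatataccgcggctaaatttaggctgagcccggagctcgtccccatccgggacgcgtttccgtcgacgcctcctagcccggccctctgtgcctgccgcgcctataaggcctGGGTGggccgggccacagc
Klf4: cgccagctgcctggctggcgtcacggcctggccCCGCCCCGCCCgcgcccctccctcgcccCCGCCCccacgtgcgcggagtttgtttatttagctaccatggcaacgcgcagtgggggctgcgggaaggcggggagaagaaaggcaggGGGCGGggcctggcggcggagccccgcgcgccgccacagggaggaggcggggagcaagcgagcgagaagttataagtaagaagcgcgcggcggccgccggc
Klf9: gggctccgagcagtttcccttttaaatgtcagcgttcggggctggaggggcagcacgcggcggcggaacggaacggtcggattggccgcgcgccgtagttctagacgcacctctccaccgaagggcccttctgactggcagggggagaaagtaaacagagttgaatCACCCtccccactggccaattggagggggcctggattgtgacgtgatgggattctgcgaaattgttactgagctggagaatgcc
Klf3: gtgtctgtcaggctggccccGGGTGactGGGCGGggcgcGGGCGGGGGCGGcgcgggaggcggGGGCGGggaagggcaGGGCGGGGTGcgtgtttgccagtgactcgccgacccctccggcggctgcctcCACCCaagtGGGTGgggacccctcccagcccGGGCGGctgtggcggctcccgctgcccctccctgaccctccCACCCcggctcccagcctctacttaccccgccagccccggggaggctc

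Matches to GGGCGG on either strand numbered 2 for Klf2, 4 for Klf4, 0 for Klf9 and 6 for Klf3, and matches to CACCC numbered 1, 0, 1 and 5. The letters of these motifs can overlap, and a shared run is counted once for each. GGGCGG was present in 7 of the 8 member promoters and in 32.7% of 32851 promoter windows of the same length, and CACCC in 6 of 8 and in 52.0%. GC content was 59.2% to 78.4% in the members, and its median over all windows was 52.4%. The motif TTCNNNGAA, to which STAT factors bind, matched in the Klf9 window alone of the 8 and in 7.02% of all windows. CCAAT matched in 4 of 8 and in 33.8%. A further motif searched, of the type that MEF2 factors bind, matched in the Klf2 window alone of the 8 and in 3.20% of all windows. A match describes letters only, and whether these motifs bear on the differences of the members was not tested.

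Of 16 other Klf and Sp genes listed, 13 were measured, and 2 were called lower in both comparisons with the arrays titled iPS-derived NSC. The median of the 13 was 0.27 against the arrays titled iPS and 0.30 against brain NSC. Klf12, which recruits CtBP as Klf3 does, stood at 6.36, 6.94 and 6.34 in the arrays titled iPS-derived NSC, at 11.03, 10.98 and 11.04 in those titled iPS, and at 11.11, 11.04, 11.14 and 10.70 in brain NSC. Of its 5 probe sets 4 were called lower in both comparisons, with differences of -4.47 to -0.90 in the first. Sp4, a neuronal relative of Sp1, fell by 1.21 ± 0.22 (limma adjusted p = 0.000262) and by 1.53 ± 0.20. Klf17, a factor of the early embryo chosen here after its values were seen, differed by 0.95 in both, under 2-fold. In the arrays titled iPS over brain NSC limma called 0 of the 13, and 4 had an unadjusted p under 0.05.

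The cofactors of the family split. Of 12 genes for cofactors and protein turnover, 3 rose and 2 fell against the arrays titled iPS, with a median of 0.02. The CtBP genes went opposite ways, as Ctbp2 rose by 1.64 ± 0.10 (limma adjusted p = 4.75e-09) and Ctbp1 fell by 1.99 ± 0.22 (adjusted p = 2.22e-06). The deacetylase Hdac1 rose by 1.44 ± 0.11, whereas Hdac2 fell by 1.40. The acetyltransferase gene Kat2b rose by 1.43 (both chosen after their values were seen). Against brain NSC 2 rose, Ctbp2 by 2.18 ± 0.09 and Hdac1 by 1.79 ± 0.10, and 2 fell, Ctbp1 by 1.34 ± 0.20 among them. Sin3a and Sin3b, which encode the corepressor scaffold, differed by 0.86 and -0.58 from the arrays titled iPS, both under 2-fold.

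Genes of the signals known to induce members moved in both directions. Klf4 is a target of LIF through Stat3, and of the 6 genes of that list 1 rose and 1 fell against the arrays titled iPS (median -0.15). The riser was Socs3, the feedback inhibitor and itself a Stat3 target, by 4.44 ± 0.11 (limma adjusted p = 6.61e-13), while the kinase gene Jak1 fell by 1.25 ± 0.12. Stat3 was lower by 1.08 ± 0.18 than in brain NSC, a fall, and the receptor gene Lifr differed by -0.85 from the arrays titled iPS, under 2-fold.

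Klf2 is induced by the kinase Erk5 through MEF2 factors, and 3 of the 5 genes of that list fell in both comparisons (median -2.11 and -1.64). Mef2c fell by 3.67 ± 0.12 (limma adjusted p = 6.37e-12), Mef2a fell by 2.22 ± 0.11, and Map2k5, the kinase above Erk5, fell by 2.11 ± 0.18. Mapk7, the Erk5 gene itself, differed by -0.65 from the arrays titled iPS and by 0.21 from brain NSC, both under 2-fold.

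Klf10 is induced by TGF-beta. Of the 9 genes of that list 3 fell and 2 rose against the arrays titled iPS (median -0.77), with the receptor gene Tgfbr2 down by 4.61 ± 0.14 (limma adjusted p = 3.68e-12), the ligand gene Tgfb2 down by 3.87 ± 0.20 and the inhibitor Smad7 up by 2.53 ± 0.11. Tgfb2 was also the 1 of the 9 called in the arrays titled iPS over brain NSC, higher by 1.35 ± 0.19 (adjusted p = 0.000334), where Klf10 differed by 0.07 ± 0.10.

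Klf9 and Klf15 respond to glucocorticoids, and Klf9 to thyroid hormone as well. Of the 8 genes of that list 2 fell and 1 rose in both comparisons (median 0.12 and 0.03). The thyroid hormone receptor gene Thra fell by 3.14 ± 0.17 (limma adjusted p = 1.10e-09) and the glucocorticoid receptor gene Nr3c1 by 1.49 ± 0.11, while Sgk1, a glucocorticoid-induced kinase gene, rose by 2.39 ± 0.09. The hormone-induced genes Fkbp5, Tsc22d3 and Per1, named after their values were seen, differed by 0.58, -0.42 and 0.19, all under 2-fold.

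**Figure D4:**
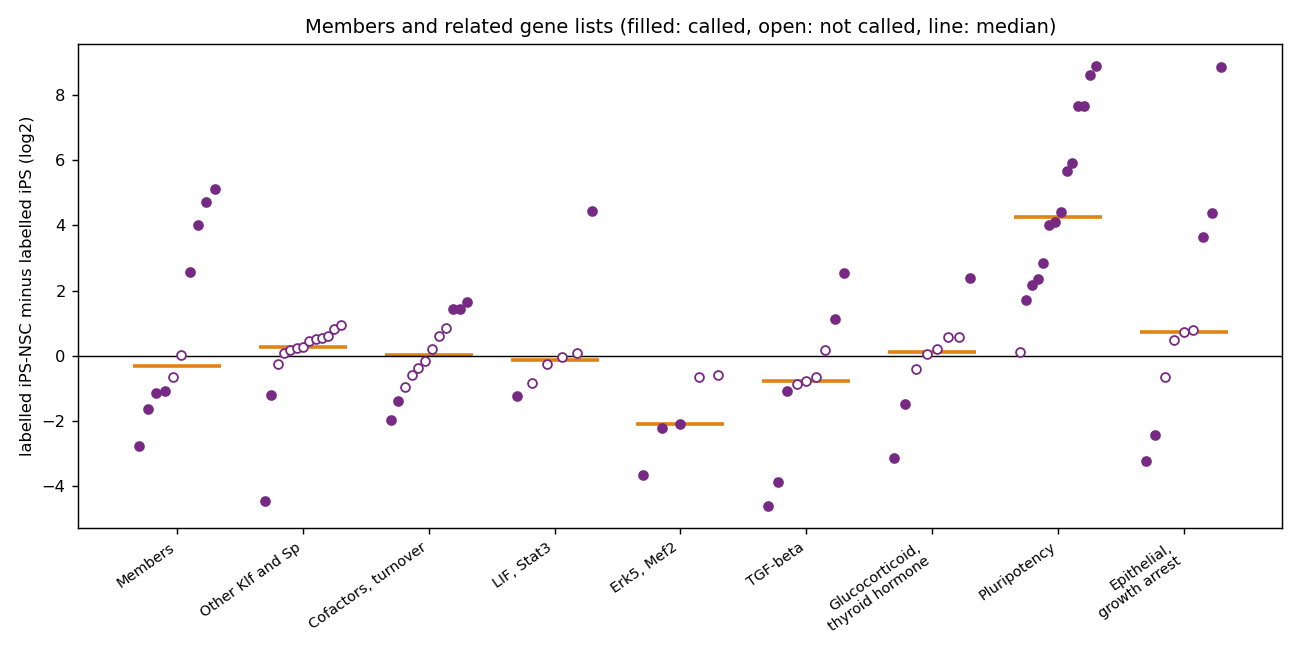
Differences of the arrays titled iPS-derived NSC over those titled iPS (log2) for the 10 members and 8 related gene lists, each point a gene, filled where called, with the median of the list as a line. The members lie on both sides of 0, from -2.78 to 5.12, 13 of 14 pluripotency genes are filled and above 0, and the Erk5 and Mef2 genes lie below 0.

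Genes that share a network with Klf2, Klf4 and Klf5 in embryonic stem cells rose with them. Of 14 on the list 13 rose in both comparisons, with a median of 4.26 against the arrays titled iPS and 4.38 against brain NSC. The embryonic stem cell marker Zfp42 rose by 8.90 ± 0.11, Pou5f1, which encodes Oct4, by 8.62 ± 0.12, and the zinc finger factor Sall4 by 7.67 ± 0.10 (largest limma adjusted p of the 3, 3.42e-15). Zfp42 averaged 3.54 in the arrays titled iPS, below the lower quartile of every array, and Pou5f1 4.66 and Sall4 5.33, below the array median, so these sizes are not exact either. The exception was Sox2, at 0.11. The deposited values do not tell vector Oct4 RNA from that of the cell's own gene.

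Of 9 measured epithelial and growth arrest genes known as Klf4 or Klf5 targets, 3 rose and 2 fell against the arrays titled iPS (median 0.72), and 5 rose and 2 fell against brain NSC (median 1.01). The cadherin gene Cdh1 rose by 8.88 ± 0.10, and the keratin genes Krt18 and Krt8 by 4.39 ± 0.12 and 3.65 ± 0.12 (largest limma adjusted p of the 3, 6.83e-12). Cdh1 and Krt18 averaged 3.55 and 3.92 in the arrays titled iPS, below the lower quartile of every array, so the sizes of these differences are not exact. The falls were in the cell cycle inhibitor Cdkn1b (-3.23) and the cyclin Ccnd1 (-2.44), and Cdkn1a, a well-known Klf4 target, differed by -0.65 (these 3 chosen after their values were seen).

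The genes most like Klf2, Klf4 and Klf5 over the 10 arrays were found by the root mean square difference of log2 values after each gene was centred on its own mean. For Klf4 they were the endocytic receptor gene Lrp2 (0.16), Rnf113a2 (0.18) and the tight junction gene F11r (0.19). For Klf2 they were the phospholipase gene Pla2g1b (0.13), the helix-loop-helix factor gene Tcf15 (0.15) and Elobl (0.16). For Klf5 they were Ly6e (0.21), Agpat2 (0.22) and Epop (0.25). Lrp2, for example, averaged 9.32 in the arrays titled iPS-derived NSC, 4.48 in those titled iPS and 4.64 in brain NSC.

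Other cell types also use members, and their markers are given for each list. In bulk RNA, more cells of a type and more RNA per cell cannot be told apart. Of 8 markers of feeder fibroblasts, 4 rose and 1 fell in the arrays titled iPS-derived NSC against those titled iPS. Their mean was 6.65, 6.36 and 5.67 on replicates 1, 2 and 3 of that group, against 5.01 to 5.08 in the arrays titled iPS and 4.94 to 5.02 in brain NSC. Single markers averaged from 4.29 (Lum) to 8.78 (Col1a2) in that group.

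Of 7 endothelial markers 1 rose, Pecam1, which embryonic stem cells also express, and the list averaged 5.23 to 5.34, 4.37 to 4.50 and 4.41 to 4.58 per array in the arrays titled iPS-derived NSC, those titled iPS and brain NSC. Besides Pecam1, the means in the arrays titled iPS-derived NSC were 6.84 for Kdr, 5.86 for Cldn5, 4.68 for Cdh5, 4.50 for Tek, 3.88 for Tie1 and 3.57 for Emcn. Kdr, Tek and Cldn5 were 0.63, 0.68 and 0.57 higher there than in the arrays titled iPS (largest limma adjusted p of the 3, 0.00348), under 2-fold. Of 8 microglia and macrophage markers 1 rose, Cd68, with list means of 4.90 to 5.07, 4.52 to 4.58 and 4.51 to 4.64. Of 7 astrocyte markers 3 fell (5.35 to 5.52, 6.53 to 6.61 and 6.57 to 6.72), and of 7 neuron markers 2 rose and 1 fell (5.85 to 5.94, 5.96 to 6.08 and 6.06 to 6.15). The near-equal means of the neuron list hide large changes both ways. Tubb3 rose by 5.34 and Neurod1 by 1.82 against the arrays titled iPS, and Map2 fell by 8.25. The part of these cell types in the differences of the members was not tested.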

How the data were processed

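Each of 10 RNA samples had 1 array, and titles gave the groups. The authors deposited log2 values for each probe set. Per the submitters' processing notes, RMA from Bioconductor made them, in a version not given here. RMA makes the distributions of arrays alike, so a shift shared by most genes is largely removed. The deposited values were not fully alike, as upper quartiles were 7.80 to 7.84 in the arrays titled iPS-derived NSC and 8.03 to 8.12 in the other groups. With quantile normalization repeated, 2214 genes were called higher and 2375 lower against the arrays titled iPS, and not 1970 and 2628. Against brain NSC the counts were 2286 and 2362, and not 2064 and 2554. The number of arrays limits the precision, and no depth applies.

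Of 45101 probe sets, 64 were controls, 34945 had 1 symbol in the platform annotation, 932 had several and 9160 none; the last 2 kinds were left out. Each of 18193 genes was tested on its brightest probe set with limma 3.58.1 in R 4.3.3 (lmFit and eBayes, 3 groups, 10 arrays, 7 residual and 5.95 prior degrees of freedom). P values are two-sided and Benjamini-Hochberg adjusted over all genes; errors are moderated standard errors (SE). Chromosomes came from a RefSeq table of GRCm38.p6, which matched 18032 genes by Entrez identifier. The fit was tested on simulated data. Figures used Python 3.11.15 and matplotlib 3.10.9.

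The members and lists were chosen with earlier results of these data known. All members are named; from each list, the 3 called genes with the largest absolute difference in a comparison, and for Klf2, Klf4 and Klf5 the 3 most alike genes. Other list genes and markers that the text names were chosen after their values were seen. Listed genes not measured under a symbol of their own include Klf8, Sp2, Sp9 and Ccnb1. Alternatives varied the probe set, scaling, filter, fit, threshold, replicate block and arrays used.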

Additional observations from a re-analysis of the deposited data

Results flagged for a closer look

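The 4 brain NSC arrays were compared for 70 probe sets or genes named or counted above, by whether 1 array lay far from the other 3; chance alone gives about 1 in 20. In 2 of 70 it did, both for replicate 4. That count does not stand out from chance in either direction, and the 70 share the same 4 arrays and in part the same genes. What leaving out replicate 4 did to the calls over all genes is given above. Ctbp1, the corepressor gene, read 11.95 on replicate 4, and the other 3 arrays lay between 10.94 and 11.04. Probe set 1429360_at of Klf3 read 9.43 there, and the other 3 lay between 8.76 and 8.85.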

How the results depend on the processing

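Against the arrays titled iPS, 6 to 8 members were called in those titled iPS-derived NSC over the alternatives tried (8 as reported; 7 to 8 with 1 array left out), and against brain NSC 6 to 8 (7 as reported; 6 to 7 with 1 array left out). With the mean of all probe sets 2 members and not 4 were called lower than in the arrays titled iPS, as Klf3 (-0.90) and Klf6 (-0.88) were lost, and Klf3 was also lost against brain NSC (-0.59). Between the arrays titled iPS and brain NSC, 1 member was called, and called higher, with array medians made equal (Klf6, 1.01), and leaving out 1 array gave 0 to 1, with 1 for the cases named above. Quantile normalization repeated on the table ended the calls of Klf6 against the arrays titled iPS (-0.83) and of Klf10 against brain NSC (-0.98); the cause was not tested. Signs turned mostly with the probe set. For the arrays titled iPS over brain NSC, other probe sets gave -0.029 for Klf3, 0.016 for Klf4, -0.042 and -0.12 for Klf5, -0.014, -0.62 and -0.080 for Klf6, -0.26, -0.11, -0.038 and -0.070 for Klf9 and -0.011 for Klf13. For the arrays titled iPS-derived NSC over those titled iPS they gave 0.77 and 0.67 for Klf3 and 0.12 for Klf13, and Klf15 was -0.034 with equal medians and -0.037 to 0.092 with 1 array left out. Over brain NSC they gave 1.26, 0.11 and 0.64 for Klf3 and 0.10 for Klf13, and Klf6 was 0.15 with repeated quantile normalization and -0.20 to 0.048 with 1 array left out. Without probe sets whose names carry a suffix, Klf5 (-0.042) and Klf6 (-0.014) turned between the arrays titled iPS and brain NSC, and Klf6 was called against brain NSC (-1.12). Over all genes, 335 were called between the arrays titled iPS and brain NSC. That count was 223 with the mean of probe sets, 222 without dim genes, 183 when the test itself asked for 1.5-fold, and 296 to 537 with 1 array left out, the highest without brain NSC replicate 4. It was 537 with the replicate block too, in which brain NSC replicate 4 is alone in its block and so drops out of the differences; the block's own part was not tested. Without dim genes 1024 and not 1970 genes were called higher against the arrays titled iPS, and 1136 and not 2064 against brain NSC. Fewer genes were tested with that filter, and why the counts of higher calls fell was not tested. With the replicate number as a block, 0, 8 and 7 members were called, as without it. Same-numbered arrays correlated at -0.21 to 0.13 in their deviations from the group means, and differently numbered arrays at -0.37 to 0.32. The first range lies within the second, and the numbers were not taken as pairs. Dim signals limit what can be said of the low levels of Klf2 and Klf4 and of the dimmest probe sets.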
